A study of Mus musculus with 4 samples.

Results

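The genes described here encode the route from glucose uptake to lactate export and a set of genes known to be induced through hypoxia-inducible factor (HIF). They were measured in mouse macrophages grown from bone marrow, phagocytes that marrow precursors form in culture, on 4 one-colour Affymetrix whole-transcript arrays. The list held 35 gene symbols, and 31 of them had at least 1 feature that the platform annotation gives to that symbol alone, of 22180 genes with such a feature. Where a gene had several features, the brightest on average was read. Gpi1 and Eno1 had no feature of their own in that annotation, and Aldoa and Ankrd37 shared theirs with another symbol, so these 4 were not analysed here. All 31 genes reached the filter, a mean of at least 3.53 log2 units (the median over all features), and were tested. They comprised 14 glycolytic enzymes, 5 genes of glucose and lactate transport and of the PFKFB enzymes that set phosphofructokinase activity, and 12 other hypoxia genes.

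The knockout macrophages were PP2ACαfl/fl, with floxed alleles of Ppp2ca, the gene of a catalytic subunit of the serine/threonine phosphatase PP2A, together with a myeloid Cre that the labels write as lyM-Cre, which is read here as Cre driven from the lysozyme M gene of myeloid cells and which deletes exon 1. The control macrophages were PP2ACαfl/fl without Cre. Both groups had grown for 6 days with L-cell supernatant, a source of macrophage growth factor, and both had received 100 ng/ml of the bacterial product LPS for 2 hours. Each group had 2 arrays labelled as biological replicates, without word on whether they came from separate mice, and the age of the mice is not given in the sources used here; the p-values therefore measure only the spread between these arrays, and their number limits the precision. No group carried Cre without the floxed alleles, so loss of the phosphatase and presence of Cre cannot be told apart, and no group was without LPS.

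Glycolysis splits glucose to pyruvate in the cytosol, and lactate dehydrogenase and a proton-linked exporter carry the pathway on when pyruvate does not enter mitochondria. HIF is a transcription factor whose alpha subunit is hydroxylated by oxygen-dependent prolyl hydroxylases and then destroyed through the von Hippel-Lindau protein; when it accumulates it binds a short motif near genes of glucose use, oxygen delivery and mitochondrial adjustment. In macrophages, LPS is known to raise glycolysis and to stabilise HIF1A even with oxygen present.

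The targeted gene was read first. Ppp2ca had 4.36 and 3.39 log2 units on the knockout arrays, against 8.25 and 7.59 on the control arrays. Knockout replicate 2 lay below the filter (3.53), and a fold is therefore left out. The limma difference was -4.04 log2 units (SE 0.36, adjusted p = 0.0076). With each array left out in turn it ran from -4.53 to -3.56, and it was -3.71 without control replicate 1. With all features of Ppp2ca averaged it was -2.14 (limma adjusted p = 0.0057), so not all features fell alike. The macrophage markers Cd68, Csf1r and Itgam averaged 11.9, 11.6 and 10.9 log2 units in knockout and 11.9, 11.6 and 11.0 in control. Adgre1, another macrophage marker, had 11.55 and 11.54 in knockout, against 11.24 and 11.23 in control. Its difference was 0.32 (limma adjusted p = 0.088). Over the 9 macrophage markers with a feature, sums of log2 levels were 94.6 to 94.7 in knockout and 93.6 to 94.3 in control. Both knockout sums lay above both control sums, with 5 differences positive and 4 negative. Limma called 1 marker higher, Fcgr1, by 0.94, and 1 lower, Cd33, by 0.70. Without a filter Fcgr1 was called (limma adjusted p = 0.035) and Cd33 was not (limma adjusted p = 0.060).

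Knockout macrophages held less RNA for some genes of glycolysis and some of the hypoxia response. By limma with Benjamini-Hochberg adjustment over all 12542 tested genes, 9 of the 31 genes were lower in knockout (29.0%) and 0 were higher, where 6.79% of all tested genes were called, 3.49% lower and 3.3% higher. The 9 were the glucose transporter Slc2a1, the glycolytic enzymes Hk2, Pfkl, Pgk1 and Pgam1, and the hypoxia genes Pdk1, Egln1, P4ha2 and Ak4. At an unadjusted p under 0.05 the counts were 15 lower and 0 higher, where 24.7% of all tested genes lay under it, 12.1% lower and 12.6% higher. The median difference over the 31 genes was -0.25 log2 units, and over all tested genes 0.0076. The genes were listed with earlier results of these data known, so these counts describe the list and do not test it. With any 1 of the 4 arrays left out, only Ak4 of the 9 stayed under an adjusted p of 0.05, and no other gene of the 31 was called. In bulk RNA such as this, less RNA per cell and fewer cells of a kind cannot be told apart.

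Of the 31 genes 27 had a negative difference, as had 48.7% of all tested genes. In 23 of the 31 both knockout arrays lay below both control arrays, which held for 26.5% of all tested genes. In 2, Slc2a3 and Aldoc, both lay above, as for 28.8% of all tested genes, and in 6 the groups overlapped. A difference of at least 1.5-fold downward, the cutoff of the series' design text applied without a test, was reached by 6 of the 31 genes (Ak4, Pfkl, Slc2a1, Pgam1, Pgk1 and Hk2), against 2.65% of all tested genes, and upward by none, against 2.59%.

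**Figure D1:**
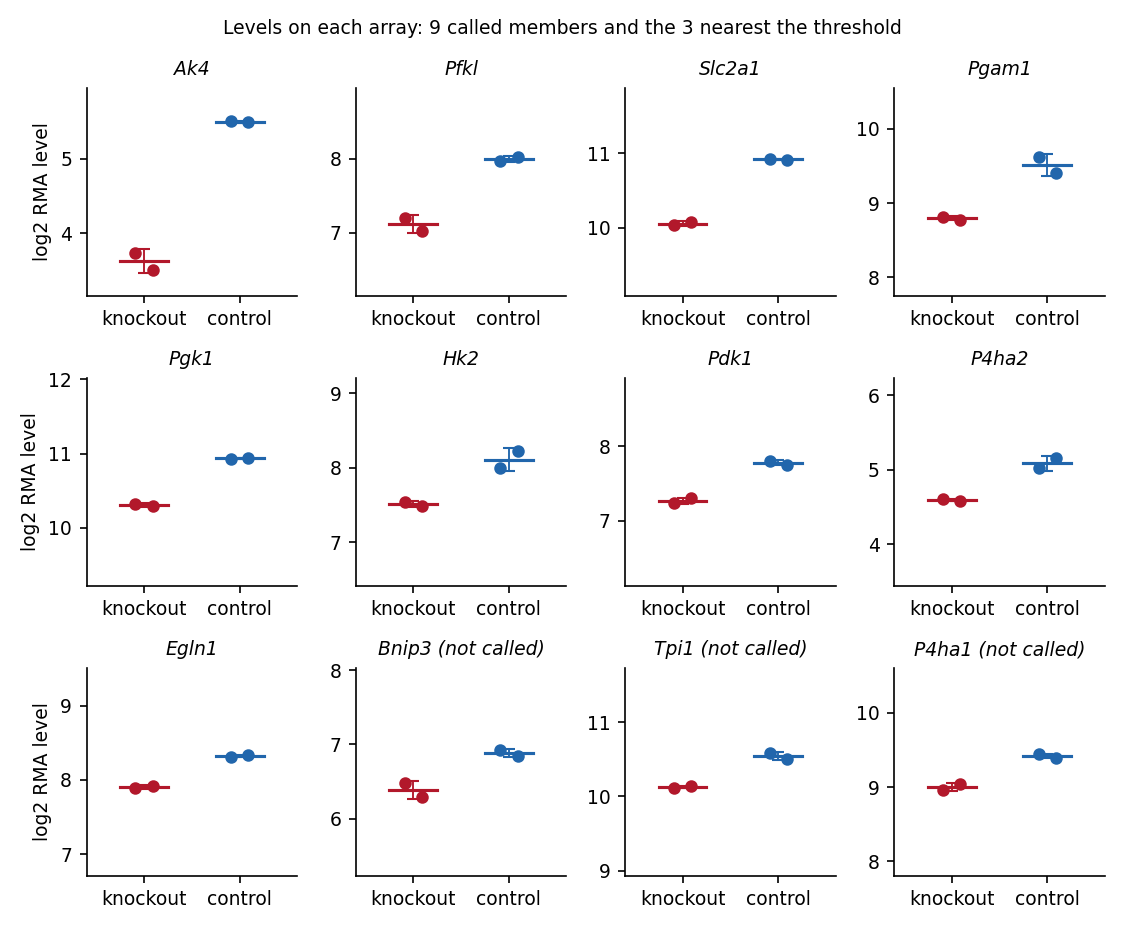
Log2 RMA level (y axis, every panel spanning the same range) on each array of knockout (left, red) and control (right, blue) macrophages for the 9 called genes and the 3 whose adjusted p came next. Points are arrays, horizontal bars means and error bars SDs (n = 2 each); in all 12 panels both knockout points lie below both control points, with the widest separation for Ak4, at 3.62 against 5.50 on average.

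The letters before the start sites of these genes were searched for the core of the hypoxia response element, to which HIF binds. RefSeq promoter windows (mouse build GRCm38.p6) of 300 bases, 250 before and 50 after each annotated start, were matched by symbol for 29 of the 31 genes. The motif was ACGTG or GCGTG on either strand, which reads CACGT or CACGC on the opposite one; overlapping matches, as in the palindrome CACGTG that MYC-family proteins also bind, were counted once. The 250 bases before the start follow for 5 lower genes of glucose uptake and glycolysis, for Ak4, which differed the most, for Tpi1, which held no motif, and for Ldha, whose level hardly differed, with the motif in capitals. They lie at chr4:119108495-119108744 (plus strand) for Slc2a1, chr6:82774455-82774704 (minus strand) for Hk2, chr10:78009808-78010057 (minus strand) for Pfkl, chrX:106186850-106187099 (plus strand) for Pgk1, chr19:41911621-41911870 (plus strand) for Pgam1, chr4:101419039-101419288 (plus strand) for Ak4, chr6:124814159-124814408 (minus strand) for Tpi1 and chr7:46845554-46845803 (plus strand) for Ldha.
Slc2a1: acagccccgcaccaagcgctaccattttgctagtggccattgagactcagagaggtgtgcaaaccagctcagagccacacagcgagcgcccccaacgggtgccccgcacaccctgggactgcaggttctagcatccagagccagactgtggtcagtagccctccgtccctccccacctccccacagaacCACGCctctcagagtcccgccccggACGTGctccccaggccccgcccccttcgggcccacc
Hk2: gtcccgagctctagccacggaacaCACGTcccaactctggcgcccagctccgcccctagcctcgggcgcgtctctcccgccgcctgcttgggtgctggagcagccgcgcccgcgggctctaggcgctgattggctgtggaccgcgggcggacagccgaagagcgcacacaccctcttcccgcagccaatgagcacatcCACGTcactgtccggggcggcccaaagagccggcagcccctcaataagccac
Pfkl: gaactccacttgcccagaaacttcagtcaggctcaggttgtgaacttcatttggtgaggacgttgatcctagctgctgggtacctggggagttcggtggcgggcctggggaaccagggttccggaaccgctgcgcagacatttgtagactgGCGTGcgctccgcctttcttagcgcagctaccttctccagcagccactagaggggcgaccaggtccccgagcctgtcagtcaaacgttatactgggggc
Pgk1: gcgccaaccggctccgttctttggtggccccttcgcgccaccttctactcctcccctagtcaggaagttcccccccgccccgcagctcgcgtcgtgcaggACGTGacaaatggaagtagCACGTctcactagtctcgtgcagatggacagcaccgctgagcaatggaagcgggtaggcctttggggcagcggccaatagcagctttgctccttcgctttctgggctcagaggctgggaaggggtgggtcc
Pgam1: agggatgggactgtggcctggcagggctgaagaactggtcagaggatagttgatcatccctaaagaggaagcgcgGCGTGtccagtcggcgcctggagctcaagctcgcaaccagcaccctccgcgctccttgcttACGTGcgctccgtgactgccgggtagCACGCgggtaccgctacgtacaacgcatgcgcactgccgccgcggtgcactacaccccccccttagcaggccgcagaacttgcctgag
Ak4: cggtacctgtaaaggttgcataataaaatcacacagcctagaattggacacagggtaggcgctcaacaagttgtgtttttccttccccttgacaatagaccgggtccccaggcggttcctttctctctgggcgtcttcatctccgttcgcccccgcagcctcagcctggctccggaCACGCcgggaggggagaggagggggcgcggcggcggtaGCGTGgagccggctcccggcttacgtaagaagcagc
Tpi1: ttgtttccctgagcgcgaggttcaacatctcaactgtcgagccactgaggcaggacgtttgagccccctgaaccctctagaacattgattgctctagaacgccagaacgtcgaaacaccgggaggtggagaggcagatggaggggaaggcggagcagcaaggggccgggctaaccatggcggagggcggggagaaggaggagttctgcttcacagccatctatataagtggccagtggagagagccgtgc
Ldha: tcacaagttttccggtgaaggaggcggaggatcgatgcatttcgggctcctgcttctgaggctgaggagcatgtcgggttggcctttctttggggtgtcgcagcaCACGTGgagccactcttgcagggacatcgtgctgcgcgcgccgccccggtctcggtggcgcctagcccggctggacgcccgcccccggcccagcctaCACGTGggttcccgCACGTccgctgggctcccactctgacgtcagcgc
Slc2a1, Hk2, Pgk1 and Ak4 each held 2 motifs before the start in these windows, Pfkl 1, Pgam1 3 and Ldha 3. In Pgk1 they lie at positions -150 to -146 and -131 to -127, counted from the start. Ak4 has 4 annotated windows and Ldha 2, of which the first is shown; the start used in these cells was not analysed here.

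Of the 29 genes with a window, 27 (93.1%) held the motif in at least 1 window, against 64.9% of 9847 tested genes with a window. ACGTG alone was held by 23 of 29 (79.3%), against 28.5% of those genes, and CACGTG by 6 of 29 (20.7%), against 11.6%. The 2 genes without a match were Tpi1 and Eno2. Within the list 9 of the 9 lower genes held the motif, and 18 of the 20 others with a window. With so few genes lacking it, these counts cannot show whether lower genes hold the motif more often. Over all tested genes that were lower in knockout and had a window, 73.6% held it. The 29 genes also had more G and C, with a median of 64.7% against 60.3%, and more windows per gene, 1.52 against 1.26 on average, and both raise the chance of a match. A match is a description of letters, and HIF binding was not measured.

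Glucose enters macrophages through facilitative transporters, and 1 of the 2 transporter genes of the list was lower in knockout. Slc2a1, the gene of GLUT1, had 10.03 and 10.07 log2 units in knockout, against 10.92 and 10.91 in control. The groups lay apart by far more than the gap between replicates, and the gene fell by 0.87 log2 units or 1.82-fold (SE 0.08, limma adjusted p = 0.0094). Slc2a3, the gene of GLUT3, had 5.70 and 5.65 in knockout, against 5.53 and 5.47 in control. Both knockout arrays were the higher ones, but its difference of 0.17 (95% interval -0.04 to 0.39, limma adjusted p = 0.29) did not pass. The difference between the 2 transporters' changes was not tested. A second Slc2a1 feature was dim, with 3.73 and 3.82 in knockout, against 3.99 and 4.16 in control.

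Hexokinases trap glucose by phosphorylation, and of the 3 isoform genes one passed. Hk2, the inducible isoform, had 7.55 and 7.49 log2 units in knockout, against 8.004 and 8.22 in control, and both knockout arrays were lower. It fell by 0.59 (SE 0.11, 1.51-fold, limma adjusted p = 0.038). The ubiquitous Hk1 differed by -0.19 (95% interval -0.49 to 0.11) and Hk3, an isoform high in myeloid cells, by -0.22 (limma adjusted p = 0.38 and 0.20). For Hk1 the highest knockout array, at 7.18, lay 0.0043 log2 units below the lowest control array.

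Phosphofructokinase commits sugar to glycolysis, and of its subunit genes only Pfkl passed. Differences between the changes of the subunit genes were not tested. Pfkl, the liver-type subunit, had 7.20 and 7.03 log2 units in knockout, against 7.97 and 8.03 in control. No array of one genotype came near those of the other, and Pfkl fell by 0.88 (SE 0.10, 1.84-fold, limma adjusted p = 0.013), the largest difference among the 14 glycolytic enzymes. Pfkm, the muscle-type subunit, had 5.35 and 5.50 in knockout, against 5.43 and 5.50 in control, and the groups overlapped. Its 95% interval was -0.29 to 0.20, while that of Pfkl was -1.13 to -0.63. Pfkp, the platelet-type subunit, had 9.75 and 9.77 in knockout, against 9.89 and 10.23 in control; the difference of -0.30 (limma adjusted p = 0.24) went with a control pair that lay far apart. The PFKFB enzymes make and remove fructose 2,6-bisphosphate, an activator of phosphofructokinase. Pfkfb3 differed by -0.11 (95% interval -0.37 to 0.14) and Pfkfb4 by 0.088 (95% interval -0.15 to 0.33), with overlapping groups in both.

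The steps that follow split the sugar and make ATP. Aldoc, an aldolase gene, had 8.15 and 8.13 log2 units in knockout, against 7.97 and 8.02 in control, and was with Slc2a3 one of the 2 genes with both knockout arrays above. Its difference of 0.14 did not pass (limma adjusted p = 0.36). Tpi1, triosephosphate isomerase, had 10.11 and 10.14 in knockout, against 10.58 and 10.50 in control. It lay just outside the threshold, with a difference of -0.42 (SE 0.09, limma adjusted p = 0.053). Gapdh, the glyceraldehyde phosphate dehydrogenase often used as a loading reference, had 11.51 and 11.56 in knockout, against 11.64 and 11.62 in control. Its difference was -0.10 (95% interval -0.31 to 0.11). Of its other features 1 differed by -0.11 and 1 by 0.30, and with all features averaged the difference was 0.030.

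Phosphoglycerate kinase and mutase are neighbouring steps, and both genes passed. Pgk1 had 10.33 and 10.29 log2 units in knockout, against 10.93 and 10.94 in control. Replicates lay close together in both groups, and the gene fell by 0.63 (SE 0.08, 1.54-fold, limma adjusted p = 0.020). Pgam1 had 8.82 and 8.78 in knockout, against 9.62 and 9.41 in control. It fell by 0.72 (SE 0.11, 1.65-fold, limma adjusted p = 0.025). A second Pgam1 feature, not used in the test, had 6.27 and 6.25 in knockout, against 6.86 and 6.82 in control, a difference of -0.58.

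The last enzymes and the lactate exporter did not pass. Pkm, pyruvate kinase, had 11.12 and 11.03 log2 units in knockout, against 11.32 and 11.33 in control, with a difference of -0.25 (limma adjusted p = 0.16). Eno2, an enolase isoform best known from neurons, differed by -0.15 (95% interval -0.41 to 0.11). Ldha, which turns pyruvate into lactate, had 6.01 and 6.10 in knockout, against 6.04 and 6.12 in control. Its groups overlapped, and the 95% interval of its difference, -0.25 to 0.20, does not reach the sizes seen for Pfkl, Pgam1 or Pgk1. This Ldha feature was far dimmer than those of Pkm, Gapdh and Pgk1. Whether it reads the gene in full was not tested, and the interval holds for this feature alone. Slc16a3, the gene of the lactate exporter MCT4, had 7.90 and 7.95 in knockout, against 8.10 and 8.14 in control. The difference of -0.20 did not pass (limma adjusted p = 0.23). Several glycolytic genes have processed pseudogenes whose transcripts or probes could be read together, which was not tested.

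**Figure D2:**
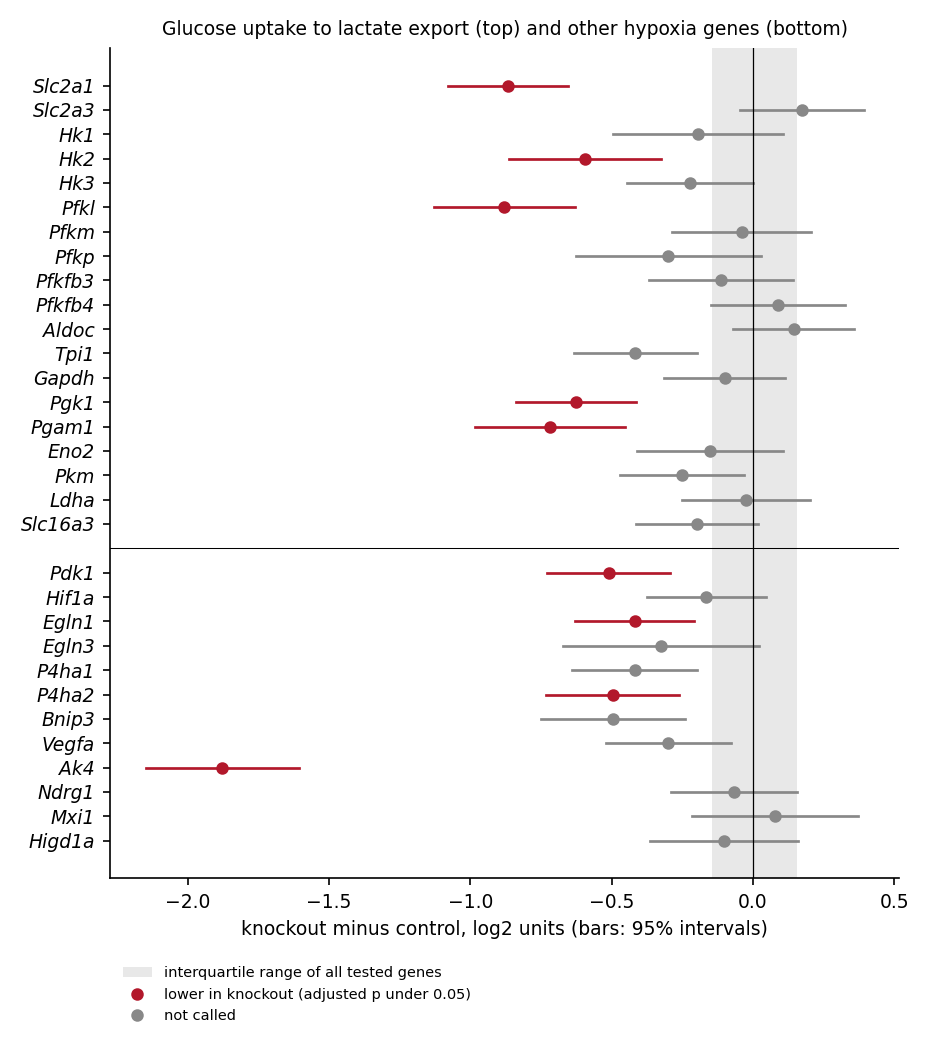
Difference between knockout and control (x axis, log2 units, negative when lower in knockout) for the 31 genes, in pathway order from uptake to lactate export above the line and other hypoxia genes below it. Points are limma estimates, bars 95% intervals, red marks the 9 genes with an adjusted p under 0.05, and the grey band is the interquartile range of all tested genes, from -0.14 to 0.16. Ak4 stands farthest left at -1.88, and 27 of the 31 points lie left of 0.

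Among the other hypoxia genes, the HIF subunit itself showed a small difference and 1 of its 2 listed oxygen sensors passed. Hif1a had 8.78 and 8.80 log2 units in knockout, against 8.96 and 8.95 in control, a difference of -0.16 (95% interval -0.37 to 0.04, limma adjusted p = 0.29). Replicates agreed closely, but HIF1A is known to be controlled mainly as a protein, which arrays do not measure. Egln1, the prolyl hydroxylase PHD2 that marks HIF for destruction and is itself induced by hypoxia, had 7.89 and 7.92 in knockout, against 8.31 and 8.33 in control. It fell by 0.42 (SE 0.08, 1.34-fold, limma adjusted p = 0.049), just inside the threshold. Egln3, the related hydroxylase PHD3, had 7.66 and 8.03 in knockout, against 8.16 and 8.18 in control. The knockout arrays were far from each other, and the difference of -0.33 did not pass (limma adjusted p = 0.22).

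Genes that adjust mitochondria and nucleotides to hypoxia held the largest difference. Ak4, a mitochondrial matrix adenylate kinase, had 3.73 and 3.51 log2 units in knockout, against 5.51 and 5.49 in control. The difference was -1.88 (SE 0.11, limma adjusted p = 0.0029), with knockout arrays close to the filter (3.53), where differences are understated, and a fold is therefore left out. With each array left out in turn its adjusted p ran from 0.020 to 0.034. Pdk1, the kinase that holds pyruvate dehydrogenase off, had 7.24 and 7.30 in knockout, against 7.81 and 7.75 in control. It fell by 0.51 (SE 0.09, 1.43-fold, limma adjusted p = 0.035). A second Pdk1 feature lay below the filter, with 2.21 and 2.11 in knockout, against 2.19 and 2.15 in control, and with both features averaged the difference was -0.26 and did not pass (limma adjusted p = 0.14). Bnip3, a mitochondrial receptor for mitophagy, had 6.48 and 6.30 in knockout, against 6.92 and 6.84 in control. Both knockout arrays were lower, and the difference of -0.49 lay just outside the threshold (limma adjusted p = 0.051). Higd1a, a mitochondrial protein of the hypoxia response, differed by -0.10 with overlapping groups.

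Prolyl 4-hydroxylases of collagen, whose alpha subunits are hypoxia targets, were both lower on both knockout arrays. P4ha2 had 4.60 and 4.58 log2 units in knockout, against 5.02 and 5.16 in control, and fell by 0.50 (SE 0.09, 1.41-fold, limma adjusted p = 0.042). P4ha1 had 8.96 and 9.04 in knockout, against 9.44 and 9.40 in control, and its difference of -0.42 did not pass (limma adjusted p = 0.054). The gap between these 2 adjusted p-values spans the threshold although their 95% intervals, -0.73 to -0.26 for P4ha2 and -0.64 to -0.20 for P4ha1, overlap almost wholly.

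The remaining hypoxia genes did not pass. Vegfa, the angiogenic growth factor, had 10.08 and 10.12 log2 units in knockout, against 10.44 and 10.36 in control, and a difference of -0.30 (limma adjusted p = 0.11). Ndrg1, a stress-responsive gene, differed by -0.067 (95% interval -0.29 to 0.15). Mxi1, a MYC antagonist of the MAX network, had 7.49 and 7.77 in knockout, against 7.55 and 7.56 in control, with a difference of 0.079. Its groups overlapped, and its second feature went the other way, with 4.81 and 4.62 in knockout, against 5.89 and 5.07 in control.

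Glycolytic enzymes and other hypoxia genes were set side by side. Of 14 enzymes 4 were lower and 13 had a negative difference. Of 12 other hypoxia genes 4 were lower and 11 had a negative difference. Over all tested genes 3.49% were lower and 48.7% had a negative difference. The median difference was -0.24 log2 units for the enzymes and -0.37 for the hypoxia genes, 0.13 apart. A matching gap taken on each array, from medians of levels centred per gene, had an SD between replicates of 0.032. That SD does not measure the spread over genes behind the gap of 0.13. The gap was 0.089 without Ak4, a choice made after its value was seen, and ran from 0.080 to 0.18 with each array left out in turn. Of the 5 transport and PFKFB genes only Slc2a1 was lower, and their median was -0.11. The enzymes ran from Pfkl at -0.88 to Aldoc at 0.14, and the other hypoxia genes from Ak4 at -1.88 to Mxi1 at 0.079.

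**Figure D3:**
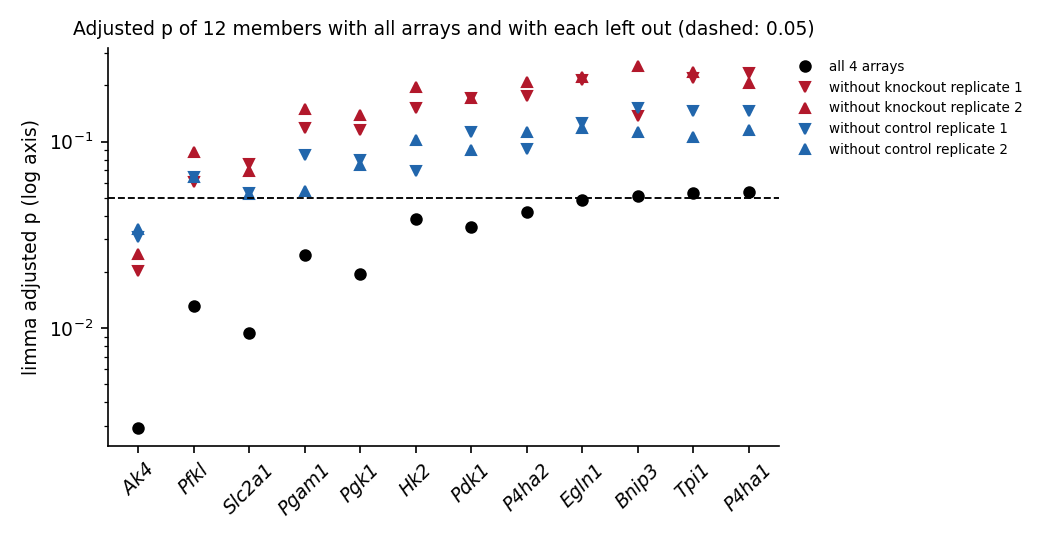
Adjusted p from limma (y axis, log scale) for the 9 called genes and the 3 next to the threshold, with all 4 arrays (black circles) and with each knockout (red) or control (blue) array left out. The dashed line is 0.05; with an array left out the markers of Ak4 alone stay below it, and Slc2a1 comes nearest otherwise, at 0.0525 to 0.0755.

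Hypoxia targets outside the list, written down as a further list, also held genes that fell. This further list, too, was chosen with earlier results of these data known, so its counts describe it and do not test it. Of 29 tested, 6 fell and 1 rose (20.7% lower, against 3.49% of all tested genes, where 3.3% were higher), with a median of -0.091 log2 units. With any 1 array left out 1 of them, Bhlhe40, was called. Bhlhe40, a transcriptional repressor, had 7.71 and 7.72 in knockout, against 9.21 and 9.07 in control, and fell by 1.42 (SE 0.09, 2.68-fold, limma adjusted p = 0.0037). Its relative Bhlhe41 fell by 0.70, Hilpda, a lipid droplet protein, by 0.77 and the mitochondrial protein gene Fam162a by 0.73. The other 2 that fell, named after their values were seen, were the collagen lysyl hydroxylase Plod2, by 0.66, and the transferrin receptor gene Tfrc, by 0.59. Zfp395 rose by 0.52 (limma adjusted p = 0.044) and was also named afterwards. Of the 29 differences 19 were negative and 10 positive. Both knockout arrays lay below both control arrays in 13 (44.8%, against 26.5% of all tested genes) and above them in 6 (20.7%, against 28.8%).

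A separate list held further HIF subunits and regulators, beside Hif1a, Egln1 and Egln3 described above. Of the 14 tested limma called 0, where 6.79% of all tested genes were called, and 6 had an unadjusted p under 0.05, against 24.7% of all tested genes. At that background few calls would fall in a list so short, and nothing is read from the 0. Their median was 0.073 log2 units, and 8 of the 14 differences were positive. Both knockout arrays lay above both control arrays in 7 (50%, against 28.8% of all tested genes). They lay below them in 4 (28.6%, against 26.5%). Epas1, the gene of HIF2A, had 5.61 and 5.94 in knockout, against 6.21 and 6.24 in control, a difference of -0.45 (limma adjusted p = 0.10). Vhl differed by -0.030, the HIF partner subunit Arnt by 0.13 and Siah1a, a ubiquitin ligase gene, by 0.47 (limma adjusted p = 0.053). These 4 were named after their values were seen.

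Further genes of glucose use mostly lay near all tested genes. Of 14 further glycolysis and glucose genes 1 fell and 0 rose: Slc2a6, a transporter of the glucose transporter family, had 8.51 and 8.46 log2 units in knockout, against 9.09 and 9.06 in control, and fell by 0.59 (SE 0.09, limma adjusted p = 0.023). Of 11 glycogen genes 1 fell, the glycogen synthase gene Gys1, by 0.43 (limma adjusted p = 0.049). Neither Slc2a6 nor Gys1 was called without a filter (limma adjusted p = 0.059 and 0.12). Limma called 0 of 9 pentose phosphate genes (2 at an unadjusted p under 0.05), 0 of 10 genes of pyruvate entry into mitochondria (2) and 0 of 18 regulators of glucose use and growth (3). Over all tested genes 6.79% were called and 24.7% had an unadjusted p under 0.05, so that these small counts do not set the lists apart. The medians of these 5 lists ran from -0.11 for the pentose phosphate pathway to 0.018 for glycogen.

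**Figure D4:**
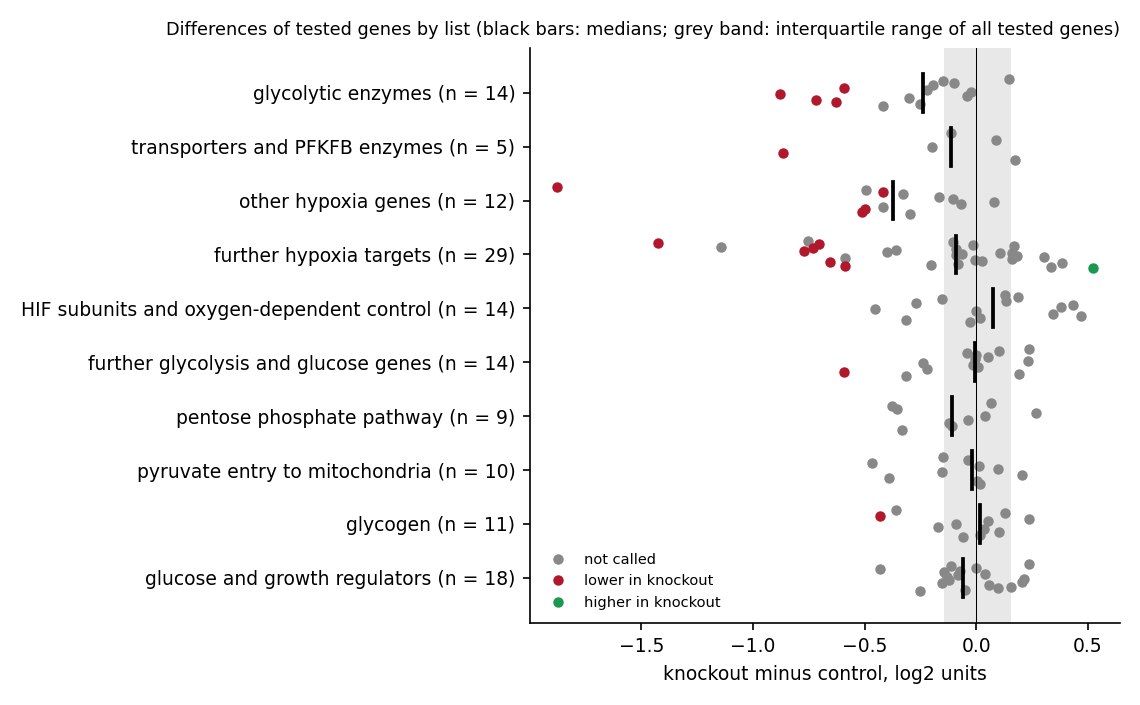
Difference between knockout and control (x axis, log2 units) of every tested gene in the 3 groups of the list and in 7 further lists (rows, with the number tested). Red points were lower and the green point higher in knockout at an adjusted p under 0.05, black bars are medians and the grey band is the interquartile range of all tested genes. The medians of glycolytic enzymes at -0.24 and other hypoxia genes at -0.37 lie left of the band, and those of the other rows inside it.

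Markers of other cell types were read beside these results. Of 42 such markers with a feature in 7 lists, 18 reached the filter, and limma called 0 of them (4 at an unadjusted p under 0.05), counts near the 6.79% and 24.7% of all tested genes. The list of neutrophils and their precursors, cells that rely on glycolysis, had a higher sum of log2 levels in knockout, from 37.5 to 37.7 over 10 markers, against 35.8 to 36.2 in control. Of these, Ly6g, S100a8, Elane, Camp and Retnlg lay below the filter, and Ngp, the highest, averaged 5.25 in knockout and 5.11 in control. Retnlg differed the most, with averages of 3.20 in knockout and 2.62 in control. S100a8, Elane and Camp averaged lower in knockout, and the other markers of that list averaged higher. Both knockout sums also lay above both control sums for dendritic cells (25.1 and 25.8 in knockout, against 24.9 and 24.7 in control), T and NK cells (22.67 and 22.13 in knockout, against 21.46 and 22.09 in control) and B cells (13.75 and 13.82 in knockout, against 13.24 and 13.68 in control). Of the T and NK markers Cd3e, Cd3g and Cd8a lay below the filter. Cd4, the highest of that list, averaged 6.40 in knockout and 5.91 in control, while Cd3g and Cd8a averaged lower in knockout. For fibroblasts and stromal cells both knockout sums lay below, at 22.3 and 22.4, against 22.9 and 22.6 in control. The sums overlapped for erythroid cells (10.16 and 10.51 in knockout, against 10.62 and 9.77 in control) and for mast cells and basophils (17.73 and 17.75 in knockout, against 17.72 and 18.33 in control). The part of these markers in the differences was not tested.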

How the data were processed

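According to the design text of the series, the authors obtained the deposited log2 values with the RMA algorithm, which corrects background and normalizes between arrays, so that a change in total RNA of a cell is not seen; RMA and oligo are listed in the submitters' processing notes, with no versions. The input was 400 ng of RNA, per the labels' protocols. The table holds 41345 features by 4 arrays, with array medians from 3.50 to 3.57 and correlations between arrays from 0.986 to 0.990. Of the features, 23521 had 1 gene symbol, 1814 several and 16010 no annotation row. No batch is given in the sources used here.

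Of 22180 genes, 12542 that reached the filter were tested with limma (version 3.58.1, R 4.3.3; eBayes with a constant prior variance and no block; 2 residual and 3.51 prior degrees of freedom), two-sided, with Benjamini-Hochberg adjustment over all tested genes and a threshold of 0.05. The scripts were tested on simulated data. Deviations of same-numbered arrays from their group means correlated at r = -0.036 across genes. Promoter windows came from RefSeq and motifs were counted in Python 3.11.15. The members and lists were chosen with earlier results of these data known. All members, Ppp2ca, up to 4 called genes per further list and every called marker are named; other genes were named after their values were seen. Alternatives covered the filter, normalization, features per gene, arrays left out, a replicate block, the variance model, list membership and the motif.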

Additional observations from a re-analysis of the deposited data

How the results depend on the processing

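Over the alternatives run, no gene with an adjusted p under 0.05 among those named turned direction. Of 12542 tested genes 852 were called, 6.79%. Of the 31 genes described 9 were lower and 0 higher, and 0 were higher under any alternative. Called were 333 of 22180 genes and 4 of the 31 without a filter. With the stricter filter, which left fewer genes to test, 1475 genes and 10 of the described genes still tested were called. With the replicate block 312 genes and 3 of the 31 (Ak4, Pfkl and Slc2a1) were called. With a variance trend and robust prior the counts were 1590 genes and 14 of the 31. With each array left out the counts ran from 96 to 174 genes, with 1 of the 31 each time; a lone array is then assumed to vary like the other group. The samples share only a replicate number. The median of the glycolytic enzymes was -0.28 with median centring, -0.20 with transporters and PFKFB enzymes added, and -0.29 to -0.19 with each array left out. That of the other hypoxia genes was -0.33 with the stricter filter or without Ak4, -0.41 with median centring, -0.34 with features averaged, and -0.42 to -0.33 with each array left out. The gap between the medians was 0.089 with the stricter filter or without Ak4, 0.098 with features averaged, 0.17 with transporters added and 0.080 to 0.18 with each array left out. With features averaged Pdk1 was not called (-0.26, adjusted p = 0.14) and Bnip3 was (adjusted p = 0.0498). Among genes not called, Gapdh turned to 0.030 and Mxi1 to -0.35 with features averaged, and with arrays left out Pfkm ran from -0.12 to 0.038, Ldha from -0.068 to 0.017 (0.014 without control replicate 2) and Mxi1 from -0.057 to 0.21. With the stricter filter Ak4, P4ha2, Higd1a and Plod2 were not tested. The motif in the 250 bases before the start alone, chosen after seeing the data, was held by 93.1% of the 29 genes described that have a window, against 58.9% of all tested genes with one. The causes of these shifts were not tested. Signal near background limits the dim genes, among them Ak4, P4ha2, Higd1a and Plod2.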
